A study of Mus musculus with 6 samples.

Results

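Syndecans and glypicans are the 2 main families of cell-surface heparan sulfate proteoglycans. The mouse genes Sdc1 to Sdc4 and Gpc1 to Gpc6 make up these families, and all 10 of 10 were measured among the 19938 genes of the array, each by a single probe set that the platform annotation gives to that gene alone. The rule takes the families whole and uses no measured value, although earlier results of these data were known when these families were picked, and no probe set shared by several genes covered any of them.

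Expression was read on 6 whole-transcript microarrays. The 3 cultured arrays came from satellite cells, the stem cells of skeletal muscle, after 5 days on collagen and laminin in medium with 20% horse serum and a daily 5 ng/ml of basic fibroblast growth factor (bFGF). The 3 fresh arrays came from satellite cells taken straight from the cell sorter. In both groups the cells were sorted from hind-limb, abdominal and triceps muscle of 2-month-old C57BL/6J mice, as positive for beta-1 integrin and CXCR4 and negative for CD45, CD31, CD11b, Ter119 and Sca1. The labels give no second sort of the cultured cells at harvest. The labels speak of 3 mice and do not tie arrays to animals, so p-values measure the spread between these arrays, which may be technical. A change in the mix of cells cannot be told apart from a change in RNA per cell.

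A syndecan spans the membrane, carries heparan sulfate on its outer part and ends in a short cytoplasmic tail that binds scaffold proteins. A glypican is held to the outer leaflet of the membrane by a glycosylphosphatidylinositol anchor and has no cytoplasmic part. The sulfated chains of both bind fibroblast growth factors, hepatocyte growth factor, Wnt and bone morphogenetic proteins and present them to their receptors. In mouse muscle, syndecan-3 and syndecan-4 are established surface markers of satellite cells, and bFGF, the factor added to the medium here, signals with heparan sulfate as its co-receptor.

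Sdc4 was the only member past the threshold. It was lower in the cultured cells by 7.49-fold, and none of the other 9 genes passed the test over all genes. Sdc1, Sdc2, Gpc3, Gpc4, Gpc5 and Gpc6 had cultured and fresh arrays that overlapped, as did Sdc3, while Gpc1 and Gpc2 lay higher on every cultured array than on any fresh array. By limma with Benjamini-Hochberg adjustment over all genes and a threshold of 0.05, 1 of 10 members was lower and 0 were higher, beside 3.37% of all genes lower and 0.953% higher, or 4.32% in either direction. At an unadjusted limma p under 0.05, Gpc1 and Gpc2 were higher as well. The share of all genes under that looser threshold was not counted, so no rise of the glypicans is read from it. The groups did not overlap for 3 of 10 members, beside 23.2% of all genes. Of the 3, Gpc1 and Gpc2 were higher in culture, as 12.9% of all genes were without overlap, and Sdc4 was lower, as 10.3% were. The median log2 fold change was 0.13 over the members and 0.04 over all genes.

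**Figure D1:**
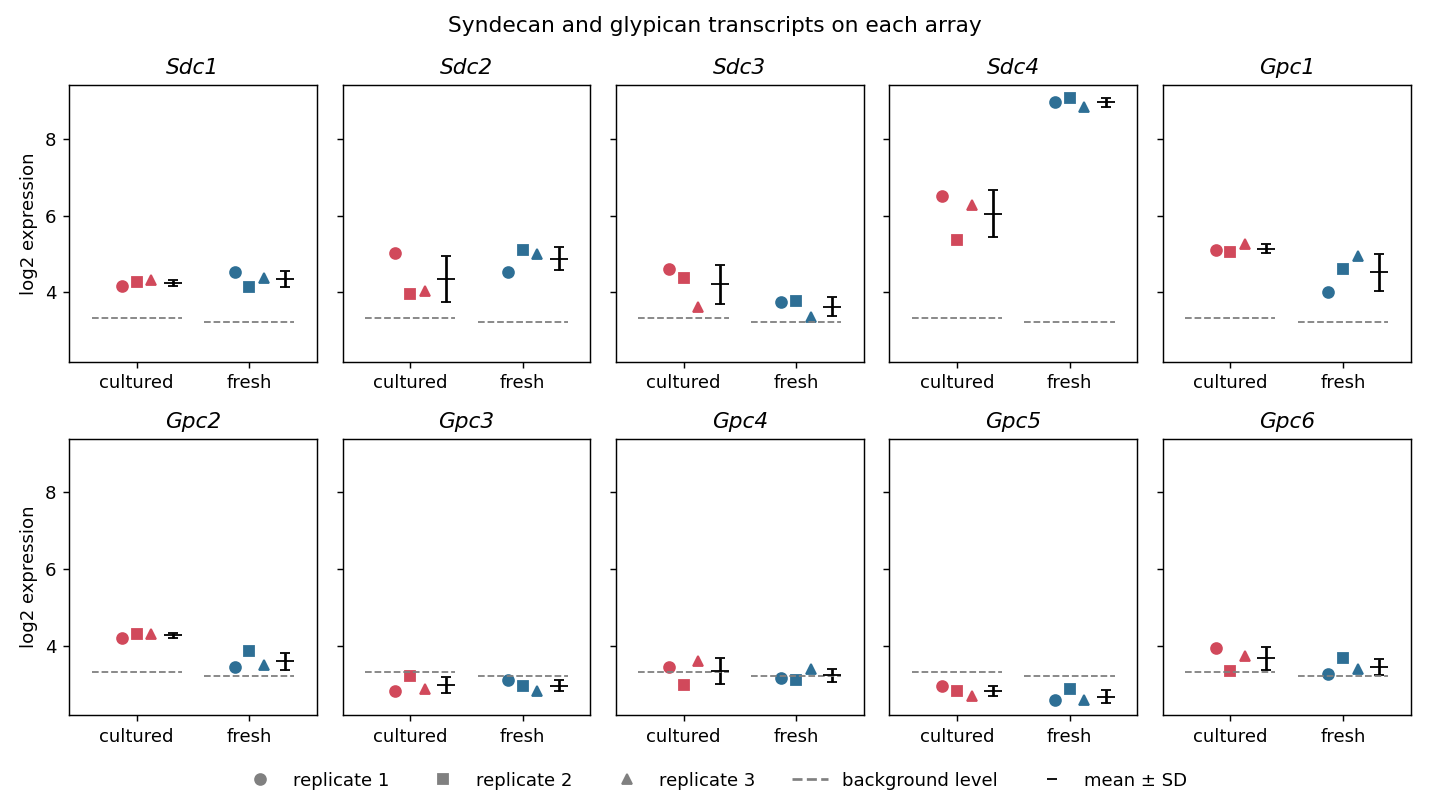
Log2 expression of the 10 syndecan and glypican genes on each cultured and each fresh array, with the group mean and SD (n = 3) beside the points and the background level of each group as a dashed line. Sdc4 sits between 5.35 and 6.52 on the cultured arrays and between 8.84 and 9.08 on the fresh arrays, and Gpc3 and Gpc5 lie under the dashed lines on all 6 arrays. Levels of different genes come from different probes and cannot be set against each other.

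Sdc4 encodes syndecan-4, which gathers in focal adhesions, binds protein kinase C alpha through its tail and serves as a receptor for fibronectin. Its log2 expression was 6.52, 5.35 and 6.28 on cultured replicates 1, 2 and 3, against 8.95, 9.08 and 8.84 on fresh replicates 1, 2 and 3. All cultured arrays were therefore well under all fresh arrays, and cultured replicate 2 was the lowest. The group means were 6.05 ± 0.62 in cultured cells and 8.96 ± 0.12 in fresh cells (SD, n = 3 each). The log2 fold change was -2.91 ± 0.29 (SE), with a 95% confidence interval of -3.57 to -2.24 and a limma adjusted p of 0.00128, and 122 of all genes had a lower one. Sdc4 remained above background in culture, where background is the level that 95% of the values of 1194 odorant and pheromone receptor genes do not exceed, 3.32 on cultured and 3.21 on fresh arrays.

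The spread of Sdc4 was wider in culture, with a range of 1.17 log2 units over the cultured arrays and 0.24 over the fresh arrays. Genes of like brightness on the fresh arrays were also lower in culture, most on cultured replicates 2 and 3. They were picked by their fresh level alone, so part of their lower level in culture can follow from the choice. For the 137 other genes whose fresh mean lay within 0.5 log2 units of that of Sdc4, the median difference from the fresh mean was -0.53, -1.97 and -1.38 on cultured replicates 1, 2 and 3. Of these genes 56 (40.9%) also passed the test as lower, beside 3.37% of all genes, and 25 (18.2%) fell at least as far as Sdc4. The difference of Sdc4 itself was -2.44, -3.60 and -2.68 on the same arrays, so that it was lower than this median on each of them, in the same order. With cultured replicate 1 alone against the fresh arrays, an alternative chosen after seeing the data in which the lone array is assumed to vary like the others, the log2 fold change was -2.44 with an adjusted p of 0.00211. A further quantile normalization gave -2.16 with an adjusted p of 0.000350, which makes the fall smaller by more than 1.5 times on the linear scale, and cyclic loess gave -2.33 with 0.000105.

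**Figure D2:**
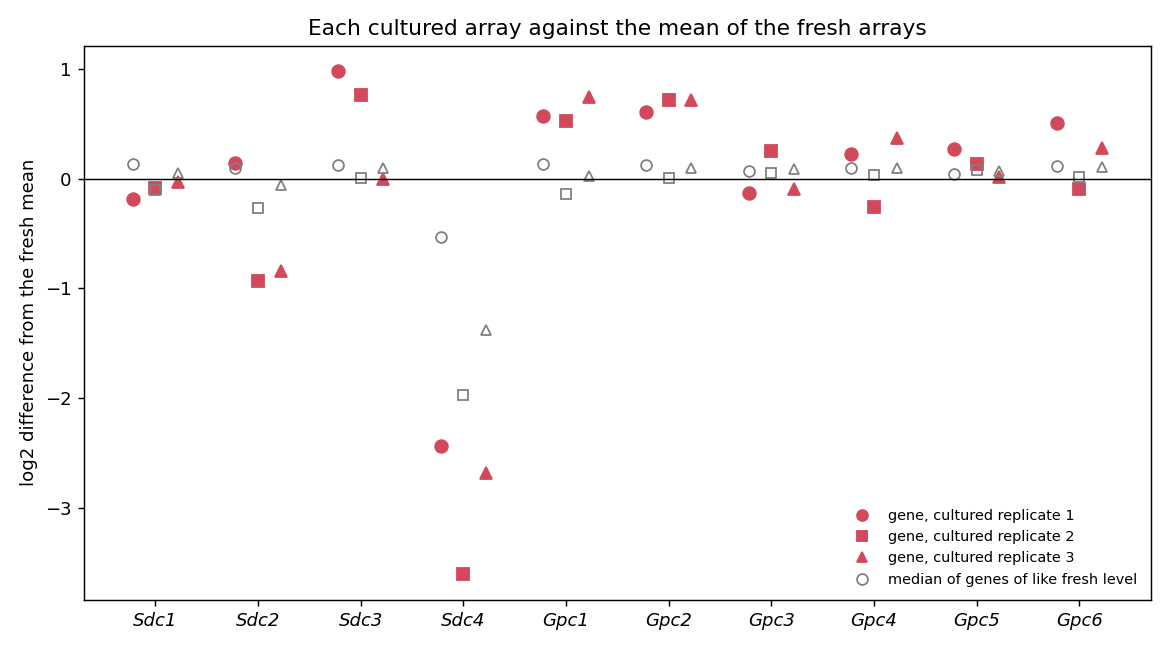
Log2 difference of each cultured array from the mean of the 3 fresh arrays, for each syndecan and glypican (filled symbols) and for the median of all other genes with a fresh mean within 0.5 log2 units of it (open symbols). Sdc4 differs by -2.44 to -3.60 where its like-level genes differ by -0.53 to -1.97, Sdc2 is lower on cultured replicates 2 and 3 only, and Gpc1 and Gpc2 are higher on all 3 cultured arrays.

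Fibro-adipogenic cells of muscle carry Sca1, for which the sorted cells were negative, and the Sca1 gene Ly6a was not among the genes analysed here. Of 11 measured fibro-adipogenic markers 5 (45.5%) were lower in the cultured cells and 0 higher, beside 3.37% and 0.953% of all genes. The summed log2 level of the 11 was 42.5 to 43.0 on cultured and 57.6 to 63.4 on fresh arrays. The 5 were the lipocalin gene Apod, the matrix protein gene Dpt, the proteoglycan gene Dcn, the actin-severing protein gene Gsn and the collagen gene Col3a1. The 6 that did not pass included Pdgfra, at a log2 fold change of 0.27, Col1a1 at -0.13 and Col1a2 at -0.24. The others were Smoc2 at -0.44, Col15a1 at -0.64 and Lum, which was under background on every array. Apod averaged 4.20 ± 0.46 in cultured and 7.49 ± 0.08 in fresh cells (SD, n = 3 each). Among these markers Dcn, singled out after its values were seen, varied by 2.67 log2 units over the fresh arrays (8.53, 7.78 and 5.86 on replicates 1, 2 and 3). Dpt was 7.39, 7.24 and 7.68 on the same arrays, highest where Dcn was lowest, and Gsn was 6.69, 7.08 and 6.70. Sdc4 varied by 0.24 over those arrays. Some tendon cell markers were high on fresh replicate 1, with Chad at 6.78 there beside 3.56 and 3.97 on fresh replicates 2 and 3, while Scx was at 5.26, 5.23 and 4.69 on fresh replicates 1, 2 and 3. The summed log2 level of the 8 tendon markers was 28.3 to 29.4 on cultured and 26.6 to 39.7 on fresh arrays. On fresh replicate 1 Sdc4 lay between its values on the other two. Without that array its log2 fold change was -2.91 with an adjusted p of 0.00870. The part of other cell types in the fall was not tested.

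All 11 measured satellite cell markers lay above background in both groups. Pax7, the lineage transcription factor, averaged 5.14 ± 0.14 in cultured and 6.47 ± 0.23 in fresh cells (SD, n = 3 each). Of these 11 markers 7 (63.6%) fell and 0 rose, beside 3.37% and 0.953% of all genes. No share among genes of like level was taken for any marker list. Among the 7 was the sort marker Cxcr4 with a log2 fold change of -2.47, while the sort marker Itgb1 was at -0.55 with an adjusted p of 0.602. Of the brightest markers, Chrdl2, a bone morphogenetic protein antagonist, had a log2 fold change of -4.26, and the myogenic factor Myod1 was at -0.41 with an adjusted p of 0.532. The blood cell gene Ptprc (CD45) and the endothelial gene Pecam1 (CD31), both excluded by the sort, were under background in both groups. Of 7 endothelial markers 1 (14.3%), the receptor gene Tek, passed as lower (limma adjusted p = 0.0413), beside 3.37% of all genes. The cultured mean of Tek was within background and its fresh mean of 3.34 only just above it, so no size is given. Cldn5 was at 0.76 with an adjusted p of 0.0945. None of 5 blood, 7 mural, 8 tendon and 4 Schwann cell markers passed, and their brightest members on the fresh arrays were Cd68, within background in culture, and, as log2 fold changes, Cd3e at 0.01, Acta2 at 0.89, Notch3 at -0.78, Scx at 0.86, Chad at -1.16, Ncam1 at -0.27 and Sox10 at -0.22.

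The genes whose profile over the 6 arrays was nearest to that of Sdc4, by Euclidean distance after each gene's fresh mean was subtracted, were Pmepa1 at a distance of 0.36, Insig2 at 0.40 and Sqstm1 at 0.41. Pmepa1 encodes a membrane adaptor of transforming growth factor beta signalling, Insig2 a sterol sensor of the endoplasmic reticulum and Sqstm1 the autophagy receptor p62. Their log2 fold changes were -2.77, -3.02 and -2.79, and each was lowest on cultured replicate 2, as Sdc4 was. Because these genes were picked by their likeness to Sdc4 over the same arrays, this likeness follows from the choice.

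The DNA just upstream of the Sdc4 start is shown because Sdc4 is the member that passed as lower. Beside it stands the same stretch of Sdc1 and Sdc3, syndecans that did not pass the test. Sequences are the 250 bases before the annotated gene start, 5′ to 3′ on the gene's strand, from RefSeq on GRCm38.p6, in which 7 of the 10 members had an entry. The Sdc4 stretch is chr2:164443189-164443438 on the minus strand, the Sdc1 stretch chr12:8771146-8771395 on the plus strand and the Sdc3 stretch chr4:130792287-130792536 on the plus strand. Capitals mark matches on either strand to the GC box GGGCGG, to TATAA, to the AP-1 motif TGANTCA and to the NF-kB consensus.
Sdc4: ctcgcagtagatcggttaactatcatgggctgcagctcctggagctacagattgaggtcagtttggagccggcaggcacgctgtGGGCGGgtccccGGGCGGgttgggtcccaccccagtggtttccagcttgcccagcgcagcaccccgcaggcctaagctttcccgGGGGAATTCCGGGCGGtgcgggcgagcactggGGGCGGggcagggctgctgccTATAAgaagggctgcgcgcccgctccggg
Sdc1: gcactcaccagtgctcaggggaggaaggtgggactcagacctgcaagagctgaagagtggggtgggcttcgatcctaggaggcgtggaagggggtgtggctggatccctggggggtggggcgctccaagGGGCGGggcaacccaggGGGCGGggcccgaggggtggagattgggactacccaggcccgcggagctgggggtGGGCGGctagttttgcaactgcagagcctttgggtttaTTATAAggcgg
Sdc3: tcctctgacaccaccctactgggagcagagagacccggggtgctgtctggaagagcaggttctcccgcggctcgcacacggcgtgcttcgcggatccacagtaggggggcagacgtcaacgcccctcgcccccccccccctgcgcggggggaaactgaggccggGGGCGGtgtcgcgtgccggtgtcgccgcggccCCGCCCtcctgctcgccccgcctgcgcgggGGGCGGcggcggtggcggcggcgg

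The Sdc4 stretch held 4 GC boxes, a TATAA that begins 29 bases before the start and 1 match to the NF-kB consensus that begins 82 bases before the start and abuts a GC box. The Sdc1 stretch held 3 GC boxes and 2 overlapping TATAA matches that are each other's reverse strand, and the Sdc3 stretch held 3 GC boxes. The NF-kB consensus was in none of the other 6 members with an entry, and in 3.90% of all 32851 promoter windows of this length. AP-1 letters were in none of the 7 members, and in 6.75% of all windows, GC boxes in 32.7% and TATAA in 22.8%. These matches are letters in a sequence, and binding was not measured.

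Sdc1, best known from epithelia and plasma cells, was 4.16, 4.25 and 4.31 on cultured replicates 1, 2 and 3, against 4.53, 4.13 and 4.36 on the fresh replicates. The groups overlapped, and the log2 fold change was -0.10 with a 95% confidence interval of -0.45 to 0.25 (limma adjusted p = 0.791).

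Sdc2, a syndecan of mesenchymal cells and fibroblasts, split the cultured arrays. It was 5.02, 3.94 and 4.03 on cultured replicates 1, 2 and 3, against 4.54, 5.09 and 5.01 on the fresh replicates. Cultured replicate 1 thus lay within the fresh range, and the other cultured arrays lay below it. The log2 fold change was -0.55 with an interval of -1.25 to 0.16 (limma adjusted p = 0.410). Without cultured replicate 1 it was -0.89 and passed, at a limma adjusted p of 0.0330, so that this array decided the call. The direction did not hang on it, as the fold change ran from -0.89 to -0.35 when each array was left out. Only with cultured replicate 1 alone, the other cultured arrays being dropped, was it positive, at 0.14. Genes of like fresh level had median differences of 0.10, -0.26 and -0.05 on cultured replicates 1, 2 and 3, beside 0.14, -0.93 and -0.85 for Sdc2.

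Sdc3, the other syndecan that marks satellite cells and a major syndecan of neurons, was 4.60, 4.38 and 3.62 on cultured replicates 1, 2 and 3, against 3.75, 3.78 and 3.35 on the fresh replicates. It was high on cultured replicates 1 and 2, while cultured replicate 3 lay within the fresh range. The log2 fold change was 0.58 with an interval of -0.03 to 1.19 (limma adjusted p = 0.313), so neither no change nor a rise of more than 2-fold lies outside it. Of the cultured arrays, Sdc3 was lowest on replicate 3. The muscle genes Tnnc1, Actc1 and Myog, picked because earlier results of these data had shown them high on that array, are given beside it with no test. On cultured replicate 3 the slow troponin gene Tnnc1 was at 8.98, beside 6.89 and 7.14 on cultured replicates 1 and 2, the cardiac actin gene Actc1 at 9.95, beside 7.38 and 7.50, and the myogenic regulator Myog at 8.10, beside 5.89 and 6.54. Without cultured replicate 3 Sdc3 was at 0.87 with an adjusted p of 0.110. The part of differentiation in the Sdc3 values was not tested.

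**Figure D3:**
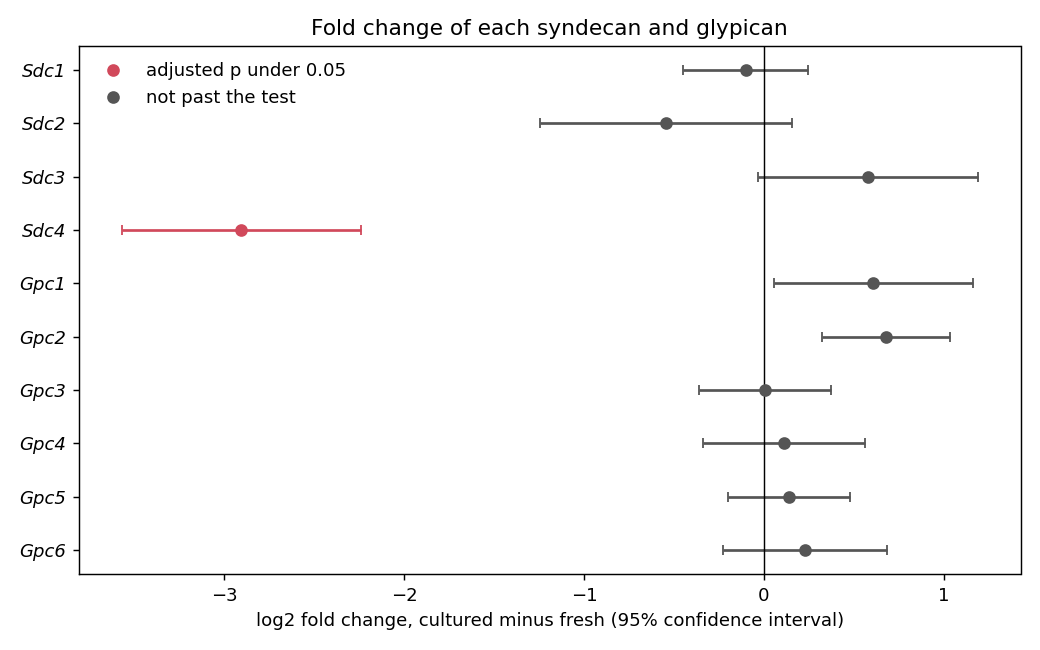
Log2 fold change (cultured minus fresh) of each syndecan and glypican, with its 95% confidence interval from limma. Sdc4, at -2.91, is the only gene past the adjusted threshold of 0.05. The intervals of Gpc1 and Gpc2 lie above 0 before adjustment, and those of the other 7 genes include 0.

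Of the glypicans, Gpc2 came closest to the threshold. Gpc2 encodes cerebroglycan, first described in developing neurons. It was 4.20, 4.31 and 4.31 on cultured replicates 1, 2 and 3, against 3.45, 3.85 and 3.49 on the fresh replicates. All cultured arrays were higher than all fresh arrays, and all 6 lay above background. The means were 4.27 ± 0.06 in cultured and 3.60 ± 0.22 in fresh cells (SD, n = 3 each), with a log2 fold change of 0.68 ± 0.15 (SE), a 95% confidence interval of 0.32 to 1.03 and a limma adjusted p of 0.0530. It passed with array weights (0.69, adjusted p = 0.0231), after quantile normalization (0.68, adjusted p = 0.0421) and without fresh replicate 2 (0.81, adjusted p = 0.0482). In the other 12 of 15 alternatives it did not pass, with adjusted p of up to 0.291.

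Gpc1 encodes glypican-1, which in mouse myoblast lines is known to bind bFGF outside its signalling complex. It was 5.09, 5.05 and 5.26 on cultured replicates 1, 2 and 3, against 4.001, 4.62 and 4.96 on the fresh replicates. The groups did not overlap, and fresh replicate 3 lay just under the cultured values while fresh replicate 1 was the farthest below. The log2 fold change was 0.61 ± 0.24 (SE), with an interval of 0.06 to 1.16 and a limma adjusted p of 0.235. Without fresh replicate 1 it was 0.35 with an adjusted p of 0.409, and over all alternatives it ran from 0.35 to 0.82 with the lowest adjusted p at 0.0758.

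Gpc3 and Gpc4 lie beside each other on chromosome X with no annotated gene starting between them, and Gpc5 and Gpc6 share chromosome 14 with no protein-coding gene starting between them, by the gene order of GRCm38.p6. Gpc3, whose human counterpart is mutated in an X-linked overgrowth syndrome, was 2.83, 3.21 and 2.86 on cultured replicates 1, 2 and 3, against 3.10, 2.96 and 2.82 on the fresh replicates. Gpc5 was 2.94, 2.81 and 2.69 on the cultured replicates, against 2.58, 2.86 and 2.58 on the fresh replicates. Both were under the background level of every array, so their fold changes of 0.01 and 0.14 on the log2 scale say nothing of a change, and neither was above background in either group.

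Gpc4, which astrocytes release to promote synapses, was 3.45, 2.96 and 3.60 on cultured replicates 1, 2 and 3, against 3.17, 3.10 and 3.40 on the fresh replicates. It exceeded the background of its array on 2 of 3 cultured and 1 of 3 fresh arrays. Gpc6, whose human counterpart is mutated in a skeletal dysplasia, was 3.95, 3.35 and 3.73 on the cultured replicates, against 3.26, 3.69 and 3.40 on the fresh replicates, and was above background on 2 of 3 cultured and 3 of 3 fresh arrays. The groups overlapped for both genes. Their log2 fold changes were 0.11 (interval -0.34 to 0.56, limma adjusted p = 0.824) and 0.23 (interval -0.23 to 0.68, adjusted p = 0.618).

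The enzymes and partners around these core proteins were described from lists drawn up by role, 93 measured genes in all. Of these, 10 (10.8%) were lower in the cultured cells and 1 was higher, beside 3.37% and 0.953% of all genes. The list was also brighter, with 64.5% of its genes above background in both groups beside 46.7% of all genes. The part of brightness in the share that fell was not tested. The median log2 fold change of the 93 genes was 0.00. The 10 that fell were spread over proteoglycans, extracellular enzymes, 1 chain-modifying enzyme and genes of growth factors and their receptors. None of the 16 genes that build the linker and polymerise the chain passed.

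Among 10 other genes whose products can carry heparan sulfate, 2 (20.0%) fell and 1 (10.0%) rose, beside 3.37% and 0.953% of all genes. Srgn encodes serglycin, an intracellular proteoglycan of secretory granules. It was 3.00, 3.48 and 3.06 on cultured replicates 1, 2 and 3, against 6.69, 7.55 and 6.42 on the fresh replicates. Because its cultured mean lay within background, the fall is given against that level, as at least 11.8-fold lower (limma adjusted p = 0.000387). Tgfbr3, which encodes betaglycan, a co-receptor for transforming growth factor beta, fell by 1.56 on the log2 scale (adjusted p = 0.00355). Col18a1, which encodes the basement membrane proteoglycan collagen XVIII, rose by 0.74 with an adjusted p of 0.0381. That call was lost in 8 of 15 alternatives, at adjusted p of up to 0.160. Perlecan (Hspg2), chosen for naming after its values were seen, was at -0.07 with an adjusted p of 0.908.

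**Figure D4:**
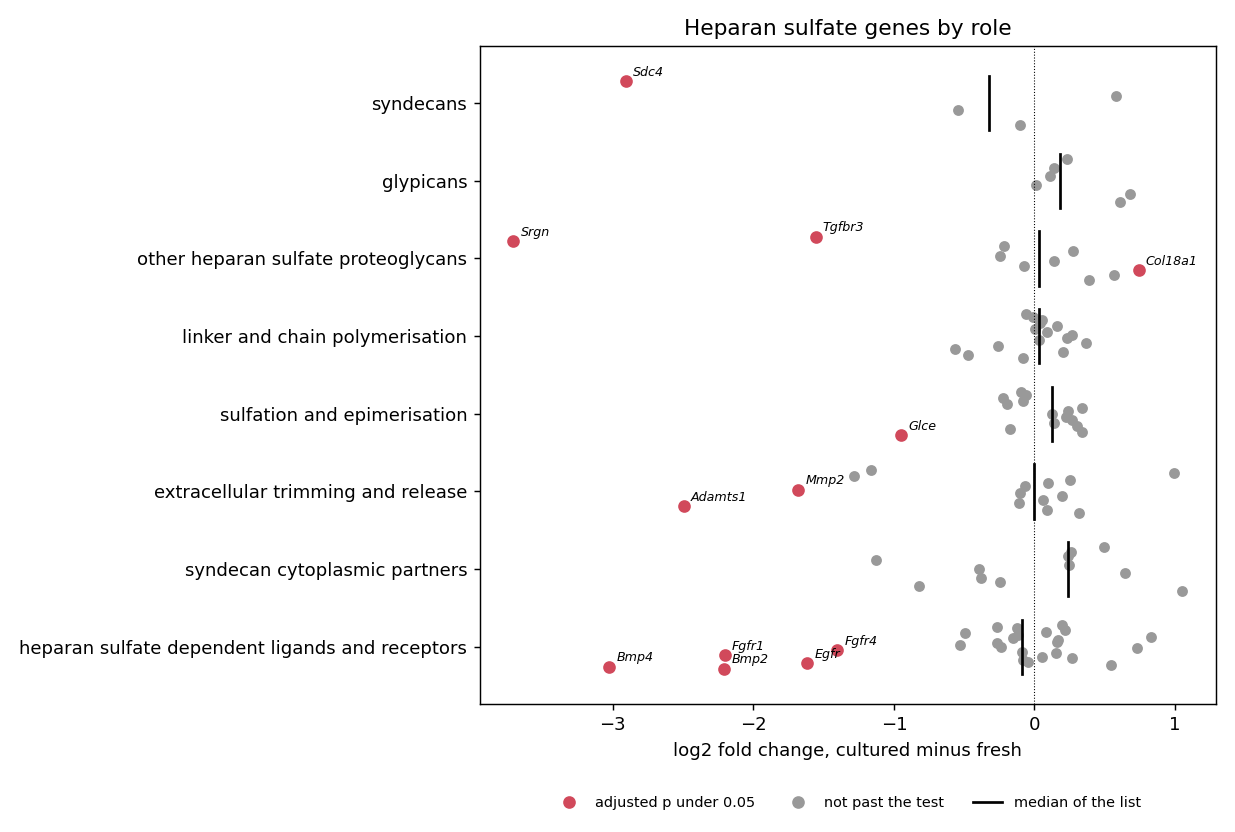
Log2 fold change (cultured minus fresh) of each measured gene, in rows by role, with the median of each row as a black bar. Coloured points passed an adjusted p of 0.05. Of the coloured genes only Col18a1 lies to the right of 0, and the rows for glypicans, for chain polymerisation and for cytoplasmic partners hold no coloured point.

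None of the 16 linker and polymerisation genes passed. For 2 of them (12.5%, beside 23.2% of all genes) the groups did not overlap, with B3gat3 lower in culture and Extl1 higher. The largest fold changes were in Ext1, a subunit of the heparan sulfate polymerase, at -0.57 (95% confidence interval -1.26 to 0.12, limma adjusted p = 0.384), and B3gat3, which adds the last sugar of the linker, at -0.47 (interval -0.87 to -0.07, adjusted p = 0.204). Of 15 measured sulfation and epimerisation genes 1 (6.67%), Glce, fell, beside 3.37% of all genes. Glce encodes the epimerase that turns glucuronic into iduronic acid, and was 2.98, 2.78 and 3.13 on cultured replicates 1, 2 and 3, against 4.09, 3.93 and 3.73 on the fresh replicates. All cultured values were within background, so it was at least 1.51-fold lower (adjusted p = 0.0149). This call was lost in 4 of 15 alternatives, among them without fresh replicate 1, at an adjusted p of 0.0539, without fresh replicate 2, at 0.0696, and with cultured replicate 1 alone, at 0.0853.

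Of 14 genes listed for the trimming and release of finished proteoglycans, 2 (14.3%) fell and 0 rose, beside 3.37% and 0.953% of all genes. Adamts1, a secreted metalloprotease known to cleave syndecan-4, was 3.43, 3.47 and 3.29 on cultured replicates 1, 2 and 3, against 5.05, 6.57 and 6.05 on the fresh replicates. Its log2 fold change was -2.50 with a limma adjusted p of 0.00660. Its cultured mean of 3.39 lay only just above the background of 3.32, which limits how well the fall of Adamts1 can be sized. With cultured replicate 1 alone the adjusted p was 0.0595 at -2.47. Mmp2, a gelatinase, fell by 1.68 on the log2 scale (adjusted p = 0.00222). The 2 extracellular sulfatases, which remove 6-O-sulfate from the chains and are named here after their values were seen, moved apart without passing. Sulf1 was 4.02, 3.49 and 3.59 on the cultured replicates, against 4.12, 5.34 and 5.50 on the fresh replicates (log2 fold change -1.29, adjusted p = 0.0998). Sulf2 was 4.93, 4.24 and 4.37 on the cultured replicates, against 3.76, 3.24 and 3.56 on the fresh replicates (log2 fold change 0.99, adjusted p = 0.0508). Neither gene's groups overlapped.

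None of 11 genes for proteins that meet the syndecan tail passed, and 6 of them had groups that did not overlap, beside 23.2% of all genes. Sdcbp encodes syntenin-1, the scaffold that binds the tail. It was 5.60, 4.71 and 4.57 on cultured replicates 1, 2 and 3, against 6.25, 5.75 and 6.28 on the fresh replicates, with a log2 fold change of -1.13 (limma adjusted p = 0.0799). Actn1 encodes an actin cross-linker of focal adhesions, and was 6.26, 5.29 and 5.76 on the cultured replicates, against 4.47, 4.75 and 4.94 on the fresh replicates, with a log2 fold change of 1.05 (adjusted p = 0.0664). Sdcbp passed with array weights (-1.32, adjusted p = 0.0186), with cyclic loess (-0.96, adjusted p = 0.0307) and without cultured replicate 1 (-1.45, adjusted p = 0.00294). In the other 12 of 15 alternatives it did not, and with cultured replicate 1 alone it was at -0.49 with an adjusted p of 0.485. Actn1 passed in 5 of 15 alternatives.

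Of 27 growth factor, receptor and ligand genes that work with heparan sulfate, 5 (18.5%) fell and 0 rose. Of all genes, 3.37% fell and 0.953% rose. Fgfr1, a receptor for the bFGF in the medium, was 5.11, 5.02 and 5.59 on cultured replicates 1, 2 and 3, against 6.91, 7.68 and 7.73 on the fresh replicates, a log2 fold change of -2.20 with an adjusted p of 0.00296. Fgfr4, the fibroblast growth factor receptor of muscle precursors, was at -1.40 (adjusted p = 0.00490) and Egfr at -1.62 (adjusted p = 0.00986). The cultured mean of Egfr, 3.45, lay near background, with 2 of 3 cultured arrays above it. Egfr lost its call without fresh replicate 3, at an adjusted p of 0.0576, and with cultured replicate 1 alone, at 0.0662. Bmp4 fell by 3.03 on the log2 scale (adjusted p = 0.000343), and Bmp2, within background in culture, was at least 3.76-fold lower (adjusted p = 0.000767). Fn1, the fibronectin gene and a ligand of syndecan-4, was at 0.73 (adjusted p = 0.201), and Fzd7, a Wnt receptor known to act with syndecan-4 in mouse satellite cells, at -0.24 (adjusted p = 0.605). Both were named after their values were seen.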

How the data were processed

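Per the labels' protocols, RNA came from a Trizol extraction and was given a biotin label with Affymetrix whole-transcript reagents. The authors deposited log2 expression values of 35556 probe sets, made with RMA and the package oligo per the submitters' processing notes, with no version stated. No source used here gives the genome build behind the probe sets, and scanner files were not used. Array medians lay between 3.10 and 3.15, and the number of arrays limits the precision.

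Probe sets were named by the platform annotation, with symbols updated by gene ID to GRCm38.p6. A single gene was given for 21789 probe sets, several genes for 1621 and none for 12146. The probe set with the highest mean per gene was kept.

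The test was limma 3.58.1 (R 4.3.3, lmFit and eBayes, group as the only term, no filter), two-sided, with Benjamini-Hochberg adjustment over 19938 genes. In simulated data on these 19938 genes for cultured against fresh, 24 of 50 genes changed by 1 log2 unit, 45 of 50 changed by 2, 50 of 50 changed by 3 and 49 of 50 changed by 4 were recovered, with 11 false calls. All members, in each role list the genes past the test (at most 5) or else the 2 with the largest absolute change, the 2 brightest fresh genes of each marker list with Pax7, Itgb1 and Cxcr4, and the 3 nearest profiles were named. Members and lists were chosen with earlier results of these data known. Kdr stands in 2 lists. Ndst1 and 6 of the markers were not measured under these rules. Cultured and fresh replicate numbers match in the labels, but same-numbered arrays did not deviate together (correlations -0.05 to 0.05 over 9969 genes), so no block was used.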

Additional observations from a re-analysis of the deposited data

How the results depend on the processing

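Over 15 alternatives, of which the fit with cultured replicate 1 alone was chosen after seeing the data, the Sdc4 fold change kept its direction and call in all, from -3.14 to -2.16 on the log2 scale with adjusted p of at most 0.0126. Of 148 values of members under the alternatives, 136 kept direction and side of the threshold, 4 passed newly (Sdc2 and Gpc2, given above) and 8 changed sign. The sign changes were in Gpc3, at -0.036 with array weights, -0.038 with quantile normalization, -0.061 with cyclic loess, -0.11 to 0.077 when each array was left out and -0.13 with cultured replicate 1 alone, in Gpc4, at -0.018 to 0.298 when each array was left out (-0.018 without cultured replicate 3), and in Sdc2, at 0.14 with cultured replicate 1 alone. All lay near 0.

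The number of genes past the test was 861, and 1742 with array weights, 1595 with quantile normalization, 1515 with cyclic loess and 448 to 1517 when each array was left out, being 448 without cultured replicate 3, 471 without fresh replicate 3, 478 without fresh replicate 2 and 1517 without cultured replicate 1. Higher genes made up, of all calls, 22.1%, and 43.8% with quantile normalization and 32.9% with cyclic loess. Members higher numbered 0, and 1 (Gpc2) with array weights and with quantile normalization, and 0 to 1 when each array was left out. Members lower numbered 1, and 1 to 2 when each array was left out, Sdc2 being the added gene without cultured replicate 1. Of the 93 surrounding genes 1 was higher, and 3 with array weights, 5 with quantile normalization, 3 with cyclic loess, 2 with the filter on dim genes, 2 with the mean of probe sets, 3 with cultured replicate 1 alone and 0 to 3 when each array was left out. The 10 lower ones became 7 to 14.

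With the replicate number as a block, a pairing the data did not bear out, 662 genes passed, of which 1 was a member, Sdc4 at an adjusted p of 0.00627. The filter on dim genes left 10626 genes and removed Gpc3 and Gpc5. The causes of these shifts were not tested. Levels near background limit what can be said of Gpc3, Gpc4, Gpc5 and Gpc6.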
